A study of Mus musculus with 19 samples.

Results

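The 43 genes described here encode heat shock proteins and chaperones of the cytosol, the mitochondrion and the endoplasmic reticulum (ER), with 5 regulators of the stress responses that control them. They were listed by gene symbol, and the rule used no measured value. All 43 were found by Ensembl identifier among the 48709 genes of the count files, and all 43 passed the filter on low counts that left 19297 genes. RNA was sequenced from the microdissected CA1 region of the hippocampus of mice aged 7 months, with lipid nanoparticles injected into the dorsal hippocampus of every group. WT control (n = 6) were wild-type littermates, APP control (n = 6) were APPPS1-21 mice, and both received control oligonucleotides. APP anti-miR-mix (n = 7) were APPPS1-21 mice that received the anti-miR-mix, which inhibits miR-148a-3p, miR-146a-5p and miR-181a-5p. APPPS1-21 mice carry transgenes, human mutant APP among them, under Thy1 regulatory sequence, so that the transgenes are expressed in neurons, and they deposit amyloid. The sample titles give WT control the prefix anti-miR-mix, whereas the study's text says these mice received control RNA, and the text was followed. There was no wild-type group with the mixture, and the labels do not say whether a library pooled animals.

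Chaperones of the Hsp70 and Hsp90 families bind unfolded or partly folded proteins and release them in cycles of ATP hydrolysis that J-domain proteins and nucleotide exchange factors drive. Unfolded protein in the cytosol activates the transcription factor HSF1, whereas unfolded protein in the ER activates IRE1, PERK and ATF6, which raise ER chaperones through XBP1, ATF4 and cleaved ATF6. In Alzheimer's disease models both arms are studied because amyloid peptide is made in the secretory pathway and because misfolded protein accumulates in and around neurons.

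The 19 libraries held between 19362343 and 37018917 counts. Levels of Thy1, the gene whose regulatory sequence drives the transgenes, separated the genotypes without overlap, between 18117 and 20734 normalized counts in WT control, then between 36153 and 62866 in APP control, then between 43203 and 54141 in APP anti-miR-mix. A normalized count is the read count divided by the size factor of its library. The summed level of 6 CA1 pyramidal markers was between 27366.5 and 46652 normalized counts over the libraries. That of 6 dentate granule markers was between 2765 and 6309, and that of 6 CA3 pyramidal markers between 2145 and 3594. These sums are not corrected for gene length or for the level of each marker in its cell type. They therefore do not measure how pure the CA1 tissue was. APP control 5 stood apart for several members and had the highest blood marker sum (2715 normalized counts against a group median of 932) and several results are also given without it. WT control 4 had the highest neuron, CA1 pyramidal and dentate granule sums of its group (381751, 46652 and 6309, against group medians of 337763, 35225 and 4016). In tissue RNA, fewer cells of a type and less RNA per cell cannot be told apart.

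The inhibitors act on microRNAs that pair with messenger RNA through their seed, bases 2 to 8. The mature sequences (RefSeq, GRCm38.p6) are printed with the seed in capitals.
miR-181a-5p: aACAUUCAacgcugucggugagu
miR-146a-5p: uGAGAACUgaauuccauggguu
miR-148a-3p: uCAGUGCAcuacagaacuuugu
The 3 seeds differ from one another. The 7 letters opposite each seed were searched on the sense strand of the 3′ UTR of 1 transcript per gene (GENCODE M21, the one with the longest coding sequence). TGAATGT, opposite the miR-181a-5p seed, was found in 6 of the 43 members (14.0%) and in 15.1% of 21014 genes. AGTTCTC, opposite that of miR-146a-5p, was found in 2 members (4.65%) and in 10.1% of genes. TGCACTG, opposite that of miR-148a-3p, was found in 14 members (32.6%) and in 11.5% of genes. The median 3′ UTR was 902 bases long in the members and 803 in all genes, and none of these shares was tested. In all, 19 members held at least 1 match. Matches of Hspa4l and Hsp90b1, the members matched by more than 1 of the microRNAs, and of Dnajb5 and Hspa12a, which were called in a comparison below, are shown with the match in capitals, all on GRCm38 and in the sense of the transcript.
Hspa4l, miR-146a-5p (chr3:40790808-40790830, plus strand): gtcatttctcaaatgAGTTCTCt
Hspa4l, miR-148a-3p (chr3:40790845-40790867, plus strand): tcctacaatgtagtcTGCACTGa
Hspa4l, first of 3 for miR-181a-5p (chr3:40792490-40792512, plus strand): ccattcttatacattTGAATGTg
Hsp90b1, miR-181a-5p (chr10:86690913-86690935, minus strand): ttttaacattcctccTGAATGTa
Hsp90b1, miR-148a-3p (chr10:86690989-86691011, minus strand): agcctccttctccccTGCACTGt
Dnajb5, miR-181a-5p (chr4:42958640-42958662, plus strand): actttgacaagccccTGAATGTt
Hspa12a, miR-148a-3p (chr19:58796530-58796552, minus strand): gagctgatagaaatcTGCACTGt
A match is a description of these letters and not a measured site.

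Promoters of 35 members (RefSeq, GRCm38.p6, the 250 bases before the start) were searched on both strands. The other members, Hspa8, Hsp90aa1 and Hspa9 among them, had no promoter sequence in this source. Only exact matches were searched, so a member without one may hold an element with other letters. The ER stress response element, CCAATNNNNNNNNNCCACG, is the sequence through which NF-Y and ATF6 act together on ER chaperone genes. It was found in 7 members, Hspa5, Calr, Hsp90b1, Canx, Pdia6, Dnajc3 and Creld2, and in 0.113% of 32851 promoters. The 7 are shown in the sense of each gene with the element in capitals, because they mark the ER genes that share it. None of them was called in the 3 comparisons below by DESeq2 with group as the only term.
Hspa5 (chr2:34772010-34772058, plus strand): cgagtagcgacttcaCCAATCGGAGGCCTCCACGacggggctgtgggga
Calr (chr8:84847060-84847108, minus strand): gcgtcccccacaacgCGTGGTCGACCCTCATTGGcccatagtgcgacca
Hsp90b1 (chr10:86705518-86705671, minus strand): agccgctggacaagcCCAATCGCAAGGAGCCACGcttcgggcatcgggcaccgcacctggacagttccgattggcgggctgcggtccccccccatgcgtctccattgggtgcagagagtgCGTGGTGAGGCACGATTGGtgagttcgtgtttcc
Canx (chr11:50325785-50325833, minus strand): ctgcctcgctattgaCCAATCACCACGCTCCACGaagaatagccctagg
Pdia6 (chr12:17266476-17266524, plus strand): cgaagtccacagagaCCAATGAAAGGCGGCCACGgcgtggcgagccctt
Dnajc3 (chr14:118937812-118937860, plus strand): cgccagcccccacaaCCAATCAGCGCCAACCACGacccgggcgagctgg
Creld2 (chr15:88819505-88819553, plus strand): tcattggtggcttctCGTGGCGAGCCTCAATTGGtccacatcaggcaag
A heat shock element of 3 units, TTCNNGAANNTTC, the arrangement that an HSF1 trimer contacts, was found in 3 members and in 0.466% of promoters. Hsph1 held a match that did not lie within the bases before the start. Hspd1 and Hspe1, the mitochondrial Hsp60 and its co-chaperonin Hsp10, are neighbours on opposite strands, and their element lies before both RefSeq starts. In the GENCODE M21 annotation exons of the 2 genes overlap by 112 bases. Both overlapping matches are in capitals.
Hspd1 and Hspe1 (chr1:55088044-55088091, minus strand, the sense of Hspd1): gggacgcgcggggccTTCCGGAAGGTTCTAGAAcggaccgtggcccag
Dnajb6 (chr5:29735837-29735879, plus strand): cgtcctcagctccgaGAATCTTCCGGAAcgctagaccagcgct
Hspb8 and Sdf2l1, the members that rose most, held no exact match of either motif in this window.

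Levels between genes are given in TPM, counts divided by summed exon length and scaled to the same total in every library. Hsp90ab1, the constitutive cytosolic Hsp90, was by far the most abundant member, with 1980.5 TPM ± 164.3 (SD, n = 19). The ER lectins Calr and Canx, which hold newly made glycoproteins, followed with 465 ± 40.5 and 303 ± 22.0 TPM. Hspa5 (BiP), the ER Hsp70, stood at 195 ± 13.5 TPM and Hspa8 (Hsc70), the constitutive cytosolic Hsp70, at 189 ± 18.9 TPM, a difference smaller than either spread. The lowest levels were those of 3 heat-inducible members, Hspa1b at 4.32 ± 1.41 TPM, Hspa1a at 3.45 ± 0.525 and Hspb1 at 3.02 ± 0.499. The order of these 3 was not separated by their spread, and 48.8% to 62.3% of their 50-base windows also occur in another gene, so their levels may be understated. The summed TPM of the members lay between 6033 and 6601 in WT control, then between 5636 and 6642 in APP control, then between 5873 and 6585 in APP anti-miR-mix, ranges that overlapped.

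**Figure D1:**
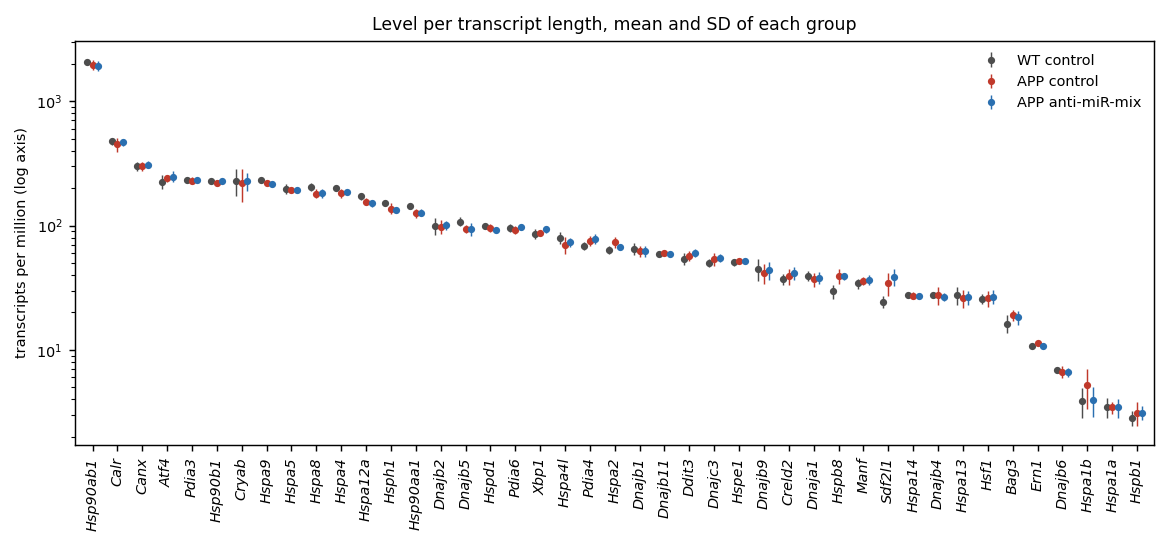
Mean level of each member in TPM (log axis) with the SD of each group as a bar, ordered by mean over the 19 libraries. Hsp90ab1 at 1980.5 TPM and Hspb1 at 3.02 TPM mark the ends.

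APP control was compared with WT control to ask how the transgenes altered the tissue. Of the 43 members, 5 passed the threshold (adjusted p under 0.05, DESeq2, over all genes), beside 5.00% of 18161 genes tested. The members that rose were Hspb8, Sdf2l1 and Hspa2 (3 of 43, beside 3.89% of genes called higher), and those that fell were Hspa8 and Hsp90aa1 (2 of 43, beside 1.11% called lower). At an unadjusted p under 0.05 there were 11 members, beside 2644 of 19297 genes. The median log2 fold change of the members was -0.02, beside -0.01 for all genes. With 1 library left out it lay between -0.031 (APP control 3) and -0.003 (APP control 2). By limma on the deposited table it was 0.012, beside 0.016 for all genes. By edgeR's quasi-likelihood test, and by DESeq2 with only the 2 groups in the fit, Hspb8 and Sdf2l1 alone were called (2 of 43, beside 621 of 19297 genes by edgeR and 745 of 18896 with 2 groups). With 1 library left out the count was between 1 and 6, and it was 3 or fewer without any of WT control 2 to 6, APP control 2 to 5 or APP anti-miR-mix 3, 5 or 6.

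Hspb8, a small heat shock protein that works with BAG3 in the selective autophagy of misfolded protein, rose in APP control. Its normalized count in WT control was 356 at the lowest, 405 at the median and 475 at the highest, in APP control 472, 521 and 675, and in APP anti-miR-mix 502, 543 and 596. The counts of the other members are given in the same way, as the lowest, median and highest library of each group. All but 1 of the APP control libraries lay above the highest WT control library, and all 7 APP anti-miR-mix libraries did. Hspb8 had a log2 fold change of 0.40 (SE 0.09, adjusted p = 0.000402, DESeq2). Without APP control 5, the highest library, it was 0.33 (adjusted p = 0.00109, DESeq2). Hspb8 was called under every other setting and with any 1 library left out.

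Bag3, the nucleotide exchange factor that partners HSPB8, was not called, with a log2 fold change of 0.22 (SE 0.11, adjusted p = 0.303, DESeq2). Without WT control 1 it was 0.31 and passed (adjusted p = 0.0361, DESeq2). The other small heat shock proteins also did not pass. Hspb1, which is inducible by heat, had a lowest, median and highest count of 16.0, 20.9 and 23.5 in WT control, then 15.6, 22.5 and 28.4 in APP control, then 16.8, 22.7 and 26.9 in APP anti-miR-mix. The groups overlapped over almost their whole range, and of its 50-base windows 48.8% also occur in the annotated pseudogene Hsp25-ps1, so its reads may be divided. Its log2 fold change in APP control was 0.14 (SE 0.22, adjusted p = 0.899, DESeq2). It was 0.09 without WT control 6 and 0.23, 0.08 and 0.06 without APP control 4, 5 and 6.

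Cryab (αB-crystallin), a small heat shock protein abundant in oligodendrocytes, had a log2 fold change of -0.05 (SE 0.19, adjusted p = 0.967, DESeq2). Its counts were 1607, 2344 and 3025 in WT control, then 1084, 2402 and 3064 in APP control, then 1728, 2512 and 2715 in APP anti-miR-mix. The medians were close together and the spread within groups wide, with APP control 5 the lowest of all. Without that library the log2 fold change was 0.09, and its sign also turned without WT control 1 (0.03) or WT control 2 (0.02). It was -0.15 without APP control 2 and -0.14 without WT control 4, and between -0.09 and -0.08 without WT control 6 or APP control 3 or 4.

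Sdf2l1, an ER protein that works with BiP and ERdj3 and is raised by ER stress, rose in APP control. Its counts were 169, 186 and 219.8 in WT control, then 196, 283 and 338 in APP control, then 227, 303 and 378 in APP anti-miR-mix. The lowest 2 APP control libraries lay within the WT control range, and all APP anti-miR-mix libraries lay above it. Sdf2l1 had a log2 fold change of 0.50 (SE 0.14, adjusted p = 0.0108, DESeq2). Without APP control 2, the highest of its group, it was 0.42 and the call was lost (adjusted p = 0.0595, DESeq2), and without APP control 5, the lowest, it was 0.57 (adjusted p = 0.000726, DESeq2).

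The other ER members did not pass. None of the 6 ER chaperones of the Hsp70, Hsp90 and J-domain families was called, nor any of the 5 lectins and disulfide isomerases, and in both sets none had an unadjusted p under 0.05. Hspa5 counts were 5206, 6050.4 and 6351 in WT control, then 5367, 5751 and 6243 in APP control, then 5473, 5841 and 6063 in APP anti-miR-mix. The APP control range lay within that of WT control, and the APP anti-miR-mix range within that of APP control. The log2 fold change of Hspa5 was -0.03 (SE 0.05, adjusted p = 0.919, DESeq2), with a 95% interval from -0.13 to 0.07, and with 1 library left out it lay between -0.06 (WT control 5) and -0.01 (WT control 1). Creld2 and Manf, secreted or luminal proteins raised by ER stress like Sdf2l1, had log2 fold changes of 0.08 and 0.06. Creld2 was 0.05 without APP control 2 and 0.13 without APP control 6, and Manf 0.04 without APP control 2 and 0.10 without WT control 1.

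None of the regulators was called. Xbp1, whose spliced form encodes the active factor of the IRE1 arm, had counts of 1796, 1972 and 2123 in WT control, then 1922, 2005 and 2117 in APP control, then 1977, 2120.4 and 2287 in APP anti-miR-mix. Gene counts do not separate the spliced form. Atf4, the transcription factor of the integrated stress response, had 3336, 3682 and 4240.4 in WT control, then 3671, 3949.8 and 4253 in APP control, then 3778, 4015 and 4656 in APP anti-miR-mix. Ddit3 (CHOP), a target of ATF4 linked to cell death under prolonged stress, had 599, 625 and 753, then 616, 699 and 772, then 659, 747 and 760.4 in the same order of groups. For each gene the group ranges overlapped, while the medians stood in the order WT control, APP control, APP anti-miR-mix. Exons of Ddit3 overlap Mars and Gm4189, and the strand setting of the counting is not given in the sources used here. In APP control the log2 fold changes were 0.04 (adjusted p = 0.875) for Xbp1, 0.09 (adjusted p = 0.700) for Atf4, 0.08 (adjusted p = 0.730) for Ddit3 and 0.08 (adjusted p = 0.517) for Ern1, which encodes IRE1α, all by DESeq2. Xbp1 stood at 0.01 without WT control 6 and 0.06 without WT control 2, Atf4 at 0.06 without WT control 4 or 5, and Ddit3 at 0.13 without WT control 1 and 0.05 without APP control 4. Hsf1, the master factor of the cytosolic response, stood at 0.00, with -0.04 without APP control 2 and 0.05 without APP control 6.

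Among cytosolic Hsp70 genes, Hspa2, a constitutive form, rose, and Hspa8 fell. Hspa2 counts were 1128, 1162 and 1375 in WT control, then 1206, 1380.2 and 1506 in APP control, then 1198, 1249 and 1366 in APP anti-miR-mix. The other WT control libraries lay at or below 1175, with WT control 4 alone at the top. This amounted to a log2 fold change of 0.20 (SE 0.06, adjusted p = 0.0428, DESeq2), and without WT control 4 it was 0.25 (adjusted p = 0.00201, DESeq2). The call was lost in 12 of the 19 fits that left out 1 library, with an adjusted p of up to 0.129 (APP control 5), and was kept only without WT control 4, APP control 4 or 6, or APP anti-miR-mix 1, 2, 4 or 7.

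Hspa8 counts were 5679, 6161 and 6604 in WT control, then 5063, 5456 and 6101 in APP control, then 5041, 5336 and 6019 in APP anti-miR-mix. Both APPPS1-21 groups lay lower, with overlap at the top of their ranges. Hspa8 fell by 0.18 on the log2 scale (SE 0.06, adjusted p = 0.0424, DESeq2). The call was lost in 13 of 19 fits with 1 library left out (adjusted p up to 0.133, and 0.116 without APP control 5) and kept only without WT control 5, APP control 1 or 3, or APP anti-miR-mix 2, 3 or 4. Of the 50-base windows of Hspa8, 38.6% also occur in other genes, most often in Gm15459, and small nucleolar RNA genes lie within its transcript.

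Hsp90aa1, the stress-inducible cytosolic Hsp90, fell alongside it. Its counts were 3677, 4011 and 4347 in WT control, then 3153, 3489 and 4016 in APP control, then 3207, 3543 and 3773 in APP anti-miR-mix. APP control 6 alone reached the WT control median. Hsp90aa1 fell by 0.18 on the log2 scale (SE 0.06, adjusted p = 0.0434, DESeq2). The call was lost in 12 of 19 fits with 1 library left out (adjusted p up to 0.169, and 0.104 without APP control 5), and was kept only without WT control 1 or 2, APP control 6, or APP anti-miR-mix 1, 2, 4 or 7. Its paralogue Hsp90ab1 had an estimate of -0.07 (adjusted p = 0.735, DESeq2). Of the windows of Hsp90aa1, 47.5% also occur in other genes.

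The heat-inducible Hsp70 genes Hspa1a and Hspa1b, neighbours on chromosome 17, were at low and similar levels. Hspa1a counts were 55.9, 69.5 and 90.3 in WT control, then 64.2, 71.9 and 88.1 in APP control, then 59.8, 70.8 and 85.5 in APP anti-miR-mix. Its log2 fold change in APP control was -0.01 (SE 0.14, adjusted p = 0.993, DESeq2), with a 95% interval from -0.29 to 0.27. Without WT control 1 the sign turned (0.06), as it did without WT control 5 or APP control 2 or 3, and without APP control 5 it was -0.08. Hspa1b counts were 58.2, 66.1 and 115 in WT control, then 76.0, 90.9 and 174 in APP control, then 57.5, 71.4 and 118 in APP anti-miR-mix. Its highest value was APP control 5, and the log2 fold change of 0.39 (SE 0.23, adjusted p = 0.458, DESeq2) was 0.17 without that library (adjusted p = 0.842, DESeq2). Of the 50-base windows of Hspa1b, 62.3% also occur in Hspa1a, so the split of reads between them is uncertain.

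Other cofactors of the cytosol did not pass. Hsph1 (Hsp110), a nucleotide exchange factor for Hsp70, had a log2 fold change of -0.16 (SE 0.06, adjusted p = 0.125, DESeq2), which was -0.11 without APP control 5 and passed without APP control 1 (-0.19, adjusted p = 0.0275, DESeq2). Dnajb1 (Hsp40), the heat-inducible J-domain partner of Hsp70, had counts of 1319, 1448 and 1612 in WT control, then 1181, 1401 and 1570.0 in APP control, then 1257, 1372 and 1594 in APP anti-miR-mix, with wide overlap. Its log2 fold change was -0.06 (SE 0.08, adjusted p = 0.852, DESeq2), and was -0.04 without WT control 1, -0.03 without WT control 3, -0.10 without APP control 1 and -0.02 without APP control 6. Of the 9 Hsp70 and Hsp110 genes, 7 had estimates below 0, with a list median of -0.13 beside -0.01 for all genes. The 3 mitochondrial members, Hspa9 (mortalin), Hspd1 and Hspe1, gave estimates between -0.07 and 0.03 and none was called. Hspd1 was at 0 to 2 decimals without APP control 2, and Hspe1 stood at 0.01 without WT control 2 and 0.07 without WT control 4.

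By DESeq2 with group as the only term and all libraries, the members not yet described were not called in APP control. Most of their estimates were small enough for 1 library to move them by over 1.5 times. Dnajb5, a J-domain protein of the cytosol, had a log2 fold change of -0.18 (SE 0.07, adjusted p = 0.161, DESeq2). It was called when the fit also allowed for the replicate number or for the adjustment number described below. Hspa4l was called when the fit allowed for the replicate number. Hspa4 and Hspa4l, relatives of Hsp110 that also act as nucleotide exchange factors, had log2 fold changes of -0.13 and -0.19, and Hspa14, a ribosome-associated Hsp70, had -0.03. Hspa4 passed without WT control 1 or APP control 6 (adjusted p down to 0.0446, DESeq2), Hspa4l without APP control 6 (-0.27, adjusted p = 0.0313, DESeq2) and Hspa12a without WT control 1 (adjusted p = 0.0486, DESeq2). Hspa14 was -0.05 without APP control 5. Dnaja1, a J-domain partner of Hsp70, and Dnajb2 and Dnajb6, which hold back protein aggregation, had -0.10, -0.02 and -0.04. With 1 library left out Dnaja1 lay between -0.15 (APP control 6) and -0.04 (WT control 6), Dnajb2 between -0.08 (WT control 4) and 0.03 (APP control 5), and Dnajb6 between -0.10 (APP control 6) and -0.01 (APP control 1). In the ER, Dnajb11 (ERdj3), a partner of BiP, had 0.03 and Dnajc3 (P58IPK), which is also an inhibitor of eIF2α kinases, had 0.10, and these were 0.01 without APP control 4 and 0.05 without APP control 6. Calr, Canx and the disulfide isomerases Pdia3, Pdia4 and Pdia6 lay between -0.09 and 0.13. Calr was lowest in APP control 5, at 7086 normalized counts, and between 8752 and 10168 in every WT control and APP anti-miR-mix library, and without APP control 5 its estimate went from -0.09 to -0.02. The estimates of Canx and Pdia3 were near 0, and 0.04 and 0.02 without that library, while Pdia6 went from -0.05 to -0.01.

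**Figure D2:**
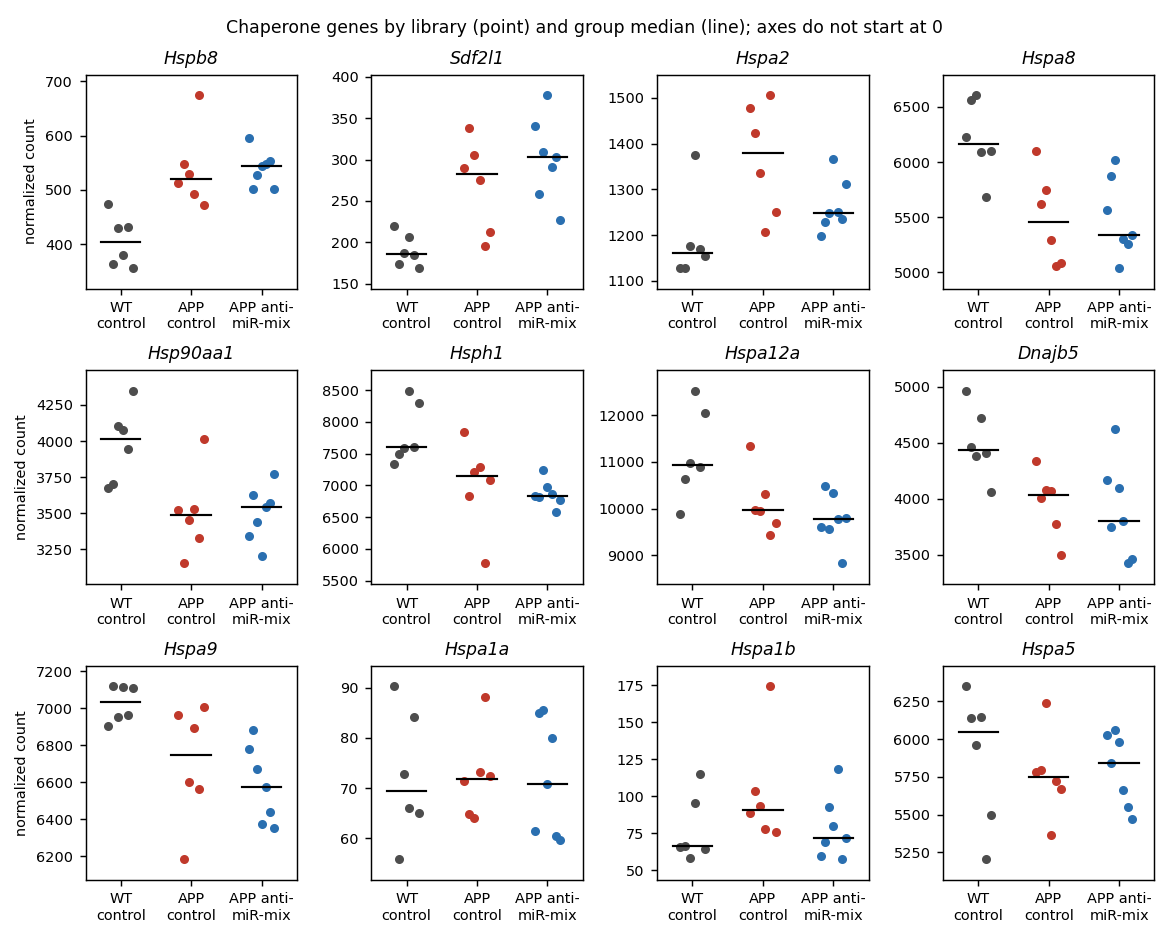
Normalized counts of 12 members in each of the 19 libraries, with the group median as a line and axes that do not start at 0. Hspb8 and Sdf2l1 lie higher in both APPPS1-21 groups, Hspa8 and Hsp90aa1 lie lower, and Hspa1a and Hspa5 overlap across all 3 groups.

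Genes of the same pathways outside the 43 members were taken from lists of 113 genes, of which 3 rose and 1 fell in APP control (4 of 113, beside 5.00% of genes). Atf3, a transcription factor induced by many stresses, had a log2 fold change of 1.30 (SE 0.28, adjusted p = 0.000210, DESeq2), with 22.9 to 78.5 normalized counts in WT control and 50.6 to 150.1 in APP control. Edem1 and Edem2, which direct misfolded glycoproteins to ER-associated degradation, rose by 0.30 (adjusted p = 0.00176) and 0.28 (adjusted p = 0.0410, both DESeq2). Edem1 was between 959 and 1149 in WT control and between 1180.5 and 1459 in APP control, with no overlap. Dnajc5 (cysteine string protein α), the J-domain protein of synaptic vesicles, fell by 0.10 on the log2 scale (adjusted p = 0.0178, DESeq2). None of the 14 subunits of the chaperonin TRiC and prefoldin and none of the 10 other mitochondrial genes was called.

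Cell type markers moved in the same comparison. Of 8 microglia markers, 6 rose in APP control, and their summed level was between 11229 and 17424 normalized counts in WT control and between 16681 and 34986 in APP control. Of 8 plaque-associated microglia markers 7 rose, with sums between 4098 and 7121 and between 6748 and 20804. Of 6 endothelium markers 1 rose (Flt1) and all 6 estimates were above 0, with sums between 3415 and 4666 and between 4049 and 6500.2. None of 5 blood markers was called and all 5 estimates were above 0, with sums between 493 and 979 and between 642 and 2715. No pericyte and smooth muscle marker was called and all 5 estimates were above 0, with sums between 2798 and 3521 and between 3051 and 4000. Among meninges and fibroblast markers none was called, with 4 estimates above 0 and 1 below. Of 8 astrocyte markers 1 rose (Gfap), with sums between 175669 and 221117 and between 193987 and 249370. Of 10 neuron markers, 2 fell (Gad1 and Gad2) and all 10 estimates were below 0, with sums between 316918 and 381751 and between 308446 and 339886. None of the 6 CA1 pyramidal and 6 dentate granule markers was called. All 6 CA1 pyramidal estimates were below 0, with sums between 31948 and 46652 and between 27366.5 and 40637. All 6 dentate granule estimates were above 0, with sums between 3057 and 6309 and between 3692 and 5824. Of 10 immediate early genes, 8 fell, with sums between 14709 and 23543 and between 9699 and 12984, without overlap. No marker in these lists was at 0 in every library. The part of these shifts in the changes of Hspb8, Sdf2l1, Hspa8 and Hsp90aa1 was not tested.

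APP anti-miR-mix was compared with APP control to ask what the inhibitors changed in the transgenic tissue. None of the 43 members was called, and none had an unadjusted p under 0.05, beside 0 of 19284 genes called (0%). Over all genes, 552 had an unadjusted p under 0.05, and edgeR called 0. The members' log2 fold changes lay between -0.38 (Hspa1b) and 0.16 (Sdf2l1), with a median of 0.01 beside 0.00 for all genes. The value of Sdf2l1 was 0.08 without APP control 5, 0.10 without APP control 6 or APP anti-miR-mix 4, and 0.23 without APP control 2. For 38 of the 43 members the 95% interval lay within 0.3 on the log2 scale on either side of 0. No cell type marker was called. Of 6 CA1 pyramidal markers, 3 had an unadjusted p under 0.05, with 2 of the 6 estimates above 0 and 4 below. All 8 oligodendrocyte and all 5 blood estimates were below 0. All 8 plaque-associated microglia and all 5 meninges and fibroblast estimates were above 0. The part of these in the members' values was not tested.

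The 3 members with the smallest unadjusted p were Hspa2, Hsp90b1 and Xbp1. Hspa2 had a log2 fold change of -0.11 (SE 0.06, 95% interval -0.23 to 0.01). Hsp90b1 (Grp94), the ER Hsp90, had counts of 6315, 6555 and 6597 in WT control, then 5736, 6329 and 6601 in APP control, then 6182, 6592 and 6915 in APP anti-miR-mix, so that the treated group overlapped both others. Its log2 fold change was 0.07 (SE 0.04, 95% interval -0.01 to 0.14), and 0.04 without APP control 5. That of Xbp1 was 0.08 (SE 0.05, 95% interval -0.01 to 0.17). The adjusted p of each was 1.00 by DESeq2. The estimate for Hspa1b was -0.38 (SE 0.22, 95% interval -0.81 to 0.05) and was -0.16 without APP control 5.

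The 19 members with a seed match gave log2 fold changes between -0.38 and 0.08, with a median of 0.02 and 12 above 0. The 24 others gave values between -0.11 and 0.16, with a median of 0.00 and 14 above 0. These are descriptions and were not tested. Of the members whose matches are printed above, Hspa4l and Hsp90b1 had estimates of 0.07 each, Dnajb5 of -0.02 and Hspa12a of -0.05, and with 1 library left out Hspa4l ran from 0.01 to 0.15 (APP control 2 and 6) and Dnajb5 from -0.07 to 0.01 (APP anti-miR-mix 3 and 6). Neither the 5 lectins and isomerases nor the 6 ER chaperones held a called member, with list medians of 0.05 and 0.03. Without APP control 5, the lowest APP control library for all 5 lectins and isomerases, these medians were 0.01 and 0.04.

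APP anti-miR-mix was also compared with WT control, which measures genotype and treatment together. This comparison shares its WT control libraries with the first and its treated libraries with the second, so the values are set side by side only. Of the 43 members, 8 were called, beside 9.51% of 18161 genes. Hspb8 and Sdf2l1 rose (2 of 43, beside 5.94% called higher), and Hspa8, Hspa12a, Hsph1, Hsp90aa1, Dnajb5 and Hspa9 fell (6 of 43, beside 3.57% called lower). By edgeR only Hspb8 and Sdf2l1 were called (2 of 43, beside 1169 of 19297 genes). With 1 library left out the count was between 3 and 9, and it was 5 or fewer without WT control 3, 4 or 6 or APP anti-miR-mix 4, 5 or 6.

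Hspb8 had a log2 fold change of 0.41 (SE 0.09, adjusted p = 0.000118, DESeq2) and Sdf2l1 one of 0.66 (SE 0.13, adjusted p = 4.28e-05, DESeq2). Both were called under every setting and with any 1 library left out. Hspa8 and Hsp90aa1 had the same estimates as in APP control to 2 decimals, -0.18 each (adjusted p = 0.0199 and adjusted p = 0.0204, DESeq2). The call of Hspa8 was lost without WT control 2 or 3 or APP anti-miR-mix 4, 5 or 6 (adjusted p up to 0.0660). That of Hsp90aa1 was lost without WT control 3, 4 or 6 or APP anti-miR-mix 1 or 4 (adjusted p up to 0.0935).

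Hsph1 counts were 7344, 7597 and 8489.8 in WT control, then 5770.3, 7152 and 7834 in APP control, then 6576, 6826 and 7242 in APP anti-miR-mix. Every treated library lay below every WT control library. The log2 fold change was -0.18 (SE 0.06, adjusted p = 0.0216, DESeq2). Hspa12a, an atypical Hsp70 abundant in brain, had counts of 9881.5, 10939 and 12528 in WT control, then 9424, 9963 and 11352 in APP control, then 8821, 9781 and 10479 in APP anti-miR-mix. It fell by 0.19 on the log2 scale (SE 0.06, adjusted p = 0.0173, DESeq2) with an overlap at the lowest WT control library. Both calls were lost without WT control 4 or 6 or APP anti-miR-mix 6, with adjusted p up to 0.0957 for Hsph1 and 0.0824 for Hspa12a. Hspa12a shares exon positions with Eno4.

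Hspa9, the mitochondrial Hsp70 that pulls proteins through the inner membrane, had counts of 6904, 7035 and 7118 in WT control, then 6184, 6745 and 7006 in APP control, then 6353, 6572 and 6883 in APP anti-miR-mix. WT control libraries lay close together and above every treated library. Its log2 fold change was -0.09 (SE 0.03, adjusted p = 0.0373, DESeq2). The call was kept only without WT control 1, any 1 APP control library, or APP anti-miR-mix 1 or 2, and otherwise lost (10 of 19 fits, adjusted p up to 0.109).

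Dnajb5, a J-domain protein of the cytosol, had counts of 4058, 4434 and 4962 in WT control, then 3498, 4036 and 4340.0 in APP control, then 3423, 3803 and 4625 in APP anti-miR-mix. The treated libraries were lower at the median but spread across most of the WT control range. The log2 fold change was -0.20 (SE 0.07, adjusted p = 0.0469, DESeq2). The call was lost in 14 of 19 fits with 1 library left out (adjusted p up to 0.133) and kept only without WT control 6, APP control 1 or 6, or APP anti-miR-mix 1 or 3.

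Several ER members and stress regulators had estimates above 0 without passing, while 3 of the 6 ER chaperones lay above 0 and 3 below. Pdia4 (ERp72), a disulfide isomerase, had a log2 fold change of 0.18 (adjusted p = 0.0847, DESeq2), Creld2 0.17 (adjusted p = 0.305), Ddit3 0.15 (adjusted p = 0.179), Atf4 0.14 (adjusted p = 0.259) and Xbp1 0.12 (adjusted p = 0.0951). Hspa5 stood at -0.02 (adjusted p = 0.892, DESeq2). Pdia4 passed without WT control 1 or APP anti-miR-mix 7 (adjusted p down to 0.00311), Xbp1 without WT control 2 or APP anti-miR-mix 7 (adjusted p down to 0.0390) and Ddit3 without WT control 1 (adjusted p = 0.0339, all DESeq2). With the adjustment number described below as a linear term, Pdia4, Xbp1, Atf4 and Ddit3 passed, and 12 members were called, 6 higher and 6 lower, beside 2371 of 17426 genes. With that number as a factor Atf4 alone of the 4 passed, and 8 members were called, 3 higher and 5 lower, beside 1733 of 17800 genes. By limma on the deposited table the same 4 passed, and 10 members were called, 6 higher and 4 lower, beside 1910 genes in all. Outside the members, 8 of the 113 pathway genes rose and 1 fell (9 of 113, beside 9.51% of genes). Atf3 had a log2 fold change of 1.68 (SE 0.27, adjusted p = 4.61e-08, DESeq2) and Edem1 one of 0.39 (SE 0.07, adjusted p = 2.47e-06, DESeq2). The others that rose were Rcn1, Edem2, Eif2ak2, Slc7a11, Atf5 and Trib3, and the J-domain gene Dnaja4 fell by 0.25 (adjusted p = 0.00674, DESeq2). In the same comparison 7 of 8 microglia markers rose, with sums between 22525 and 35211 normalized counts, and 9 of 10 immediate early genes fell, with sums between 7701 and 13957, below the WT control range. All 8 plaque-associated microglia markers rose, with sums between 12064 and 22231, as did Gfap of 8 astrocyte, Flt1 and Tek of 6 endothelium, Myh11 of 5 pericyte and smooth muscle, and Col1a1 and Col1a2 of 5 meninges and fibroblast markers. Gad1 of 10 neuron and Spink8 of 6 CA1 pyramidal markers fell. The part of these shifts in the members' changes was not tested.

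**Figure D3:**
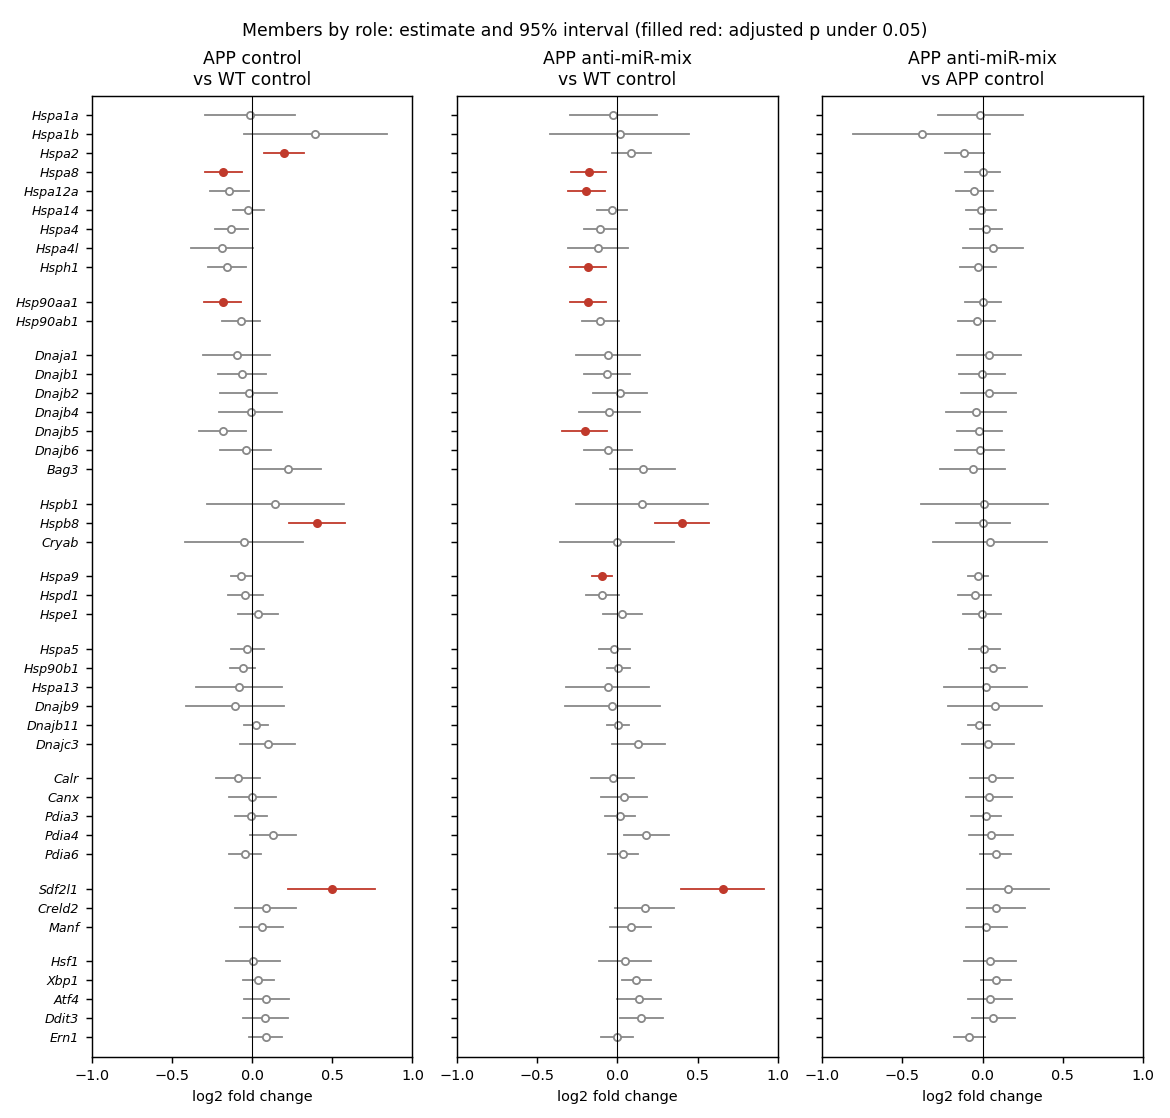
Log2 fold change of the 43 members in the 3 comparisons, as the estimate with its 95% interval, grouped by role. Filled red points passed an adjusted p of 0.05: 5 members in the left panel, 8 in the middle and 0 in the right.

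Within groups the members varied in their own ways. The coefficient of variation of a member over the libraries of a group had a median of 7.87% in WT control, then 8.70% in APP control, then 7.14% in APP anti-miR-mix. It ran from 1.39% (Hspa9 in WT control) to 35.9% (Hspa1b in APP control). For the relations between genes, 10 pairs were examined as deviations from the group means. Cryab and Mbp, the gene of myelin basic protein, had a Pearson r of 0.88 and a Spearman rho of 0.90 (n = 19, both permutation p = 1e-05, the smallest the permutations can give, adjusted p = 1e-04 over 10 pairs). Without the 2 libraries farthest from the median of Cryab, r was 0.90, and with the adjustment number removed it was 0.88. The summed level of 8 oligodendrocyte markers ran from 136392 to 283178 normalized counts over the libraries.

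The other 9 pairs did not pass the adjustment. Hspa5 and Pdia4 had an r of 0.49 and a rho of 0.47 (permutation p = 0.01998 and permutation p = 0.04624, adjusted p = 0.0999 and 0.154), and Hspa5 and Sdf2l1 an r of 0.44 and a rho of 0.50 (permutation p = 0.04298 and permutation p = 0.02891, adjusted p = 0.107 and 0.145). Without the 2 libraries farthest from the median of Hspa5 the r values were 0.69 and 0.59, and with the adjustment number removed 0.08 and -0.03. Hspa1a and Hspa1b, which share much of their sequence, had an r of 0.50 (rho 0.34, permutation p = 0.03953 and permutation p = 0.1802, adjusted p = 0.107 and 0.360). Hspa5 and Hspa1a, the leading genes of the ER and the heat shock response, had an r of -0.03.

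The deposited normalized table differed from log2(CPM + 1) by 1 profile over genes multiplied by a whole number from 1 to 5 for each library, called the adjustment number here. Its meaning is not given in the sources used here. It was spread over the groups, with 8 libraries at 1 or 2 and 11 at 3 to 5, and within each group the number never fell as the replicate number increased. The mitochondrial share of counts lay between 2.84% and 3.39% at 1 or 2 and between 3.76% and 4.87% at 3 to 5, without overlap, and its part in the values that follow was not tested. Dnajb9 (ERdj4), a J-domain partner of BiP, was between 564 and 692 normalized counts in the first set and between 756 and 1079.9 in the second. Hspa13, a microsome-associated Hsp70, was between 931 and 1137 and between 1272 and 1732, and Dnajb4, a cytosolic J-domain protein, between 1389.6 and 1644 and between 1662 and 2214. These 3 members (6.98% of 43) separated without overlap, as did 3.83% of the 19297 genes. No member separated in the other direction. The comparisons of the groups for these 3 genes all had estimates between -0.11 and 0.08.

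**Figure D4:**
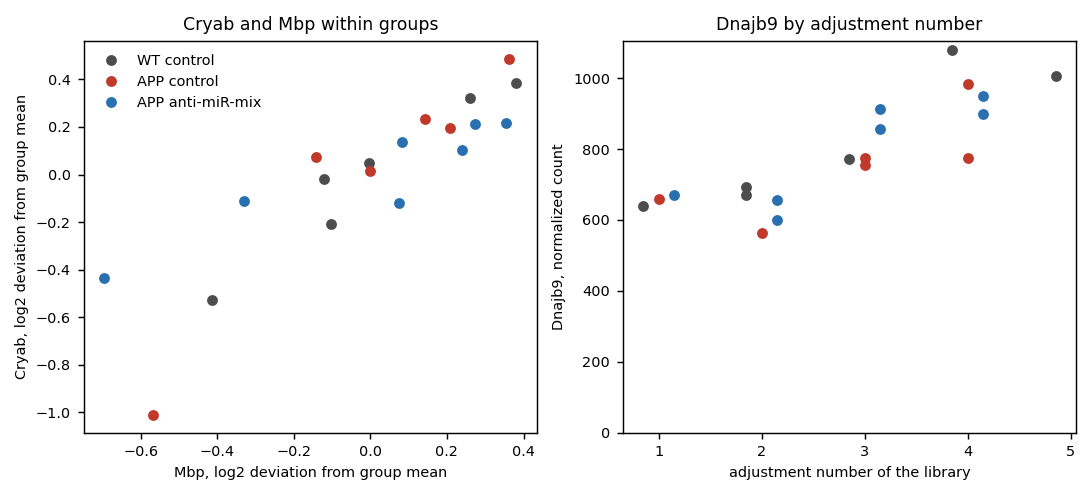
Left, Cryab against Mbp as log2 deviations from the group mean in 19 libraries (Pearson r = 0.88). Right, normalized counts of Dnajb9 by the adjustment number of the library (points of a group shifted sideways), at most 692 at numbers 1 and 2 and at least 756 at numbers 3 to 5, with all 3 groups in both ranges.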

How the data were processed

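CA1 tissue in 19 libraries was profiled by polyA-selected RNA-seq. Per the labels and the study's methods, the authors checked reads with FastQC (0.11.5), aligned them to mm10 with STAR (2.5.2b) and deposited raw read counts per Ensembl gene from featureCounts (Subread 1.5.1). The annotation release and strand setting are not given in the sources used here. The authors also deposited a log2 table of 18825 genes, normalized and adjusted, with 0.179% of values below 0, used as an alternative only.

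Groups came from the sample titles. Genes reaching 5 counts in 50% of libraries or more (19297) were fitted in DESeq2 (1.42.0, R 4.3.3) with all 3 groups in 1 model, without shrinkage, and Wald p-values were adjusted by Benjamini-Hochberg over all genes tested (threshold 0.05). On simulated counts a larger share of the DESeq2 calls was false than that threshold names, so calls with an adjusted p close to it are less certain than the value says. A 95% interval is that of the Wald estimate. The labels name no separate animals, so p-values measure only the spread between these samples, which may be technical. The closest pair of libraries within a group (WT control 2 and 3) had a chi-square per gene of 4.96, above sampling noise, so none was counted as a duplicate. Correlations used log2(normalized count + 1) as deviations from group means, two-sided, with 100000 permutations within groups over 10 pairs (Python 3.11.15, numpy 2.4.6, scipy 1.17.1). Genes were annotated with GENCODE M21 (48349 of 48709 identifiers matched). Alternatives were edgeR (4.0.16), TMM factors, other count filters, 2 groups only, no Cook cutoff, a replicate block, the adjustment number as a term, each library left out, and limma (3.58.1) on the deposited values. Total counts, between 19362343 and 37018917, set the counting precision.

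The 43 members, the gene lists and the tests were chosen with earlier results of these data known. Full values are given for members past the threshold in any comparison, for the 3 smallest unadjusted p where none passed, and for Hspa1a, Hspa1b, Hsph1, Dnajb1, Hsp90aa1, Hspb1, Cryab, Hspa5, Hspa8, Xbp1, Atf4 and Ddit3.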

Additional observations from a re-analysis of the deposited data

Results flagged for a closer look

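In 5 cases 1 library lay far from the others of its group for a member. The members were examined in 129 groups of 6 or 7 libraries, in which chance alone would set apart about 6.45, so the number found is no more than that.

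APP control 5 was set apart for 3 of them. Hspb8 stood at 675 normalized counts in it, above the 472 to 547 of the other APP control libraries, Hspa1b at 174, above 76.0 to 103.5, and Hspa1a at 88.1, above 64.2 to 73.1. The same library had the highest blood marker sum of all libraries, 2715 normalized counts, and the highest endothelium sum, 6500.2, and the part of these in the 3 values was not tested.

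Hspa2 stood at 1375 in WT control 4, above 1128 to 1175 in the other WT control libraries. That library had the highest neuron (381751), CA1 pyramidal (46652) and dentate granule (6309) marker sums of its group, with Fibcd1 at 11298 against a group median of 5466 and Dsp at 437 against 14.9, and the part of these in the value was not tested. The calls of Hsph1, Hspa12a, Hsp90aa1, Hspa9 and Dnajb5 in APP anti-miR-mix against WT control were lost without it. So were those of Hspa8 and Hsp90aa1 in APP control. Hsp90b1 stood at 6315 in WT control 6, below 6491 to 6597.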

How the results depend on the processing

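The calls of Hspb8 and Sdf2l1 against WT control held under all 10 other settings in both APPPS1-21 groups, and none of the 10 called a member between the transgenic groups. Among fits with 1 library left out, the exception was Sdf2l1 in APP control without APP control 2. The number of members called in APP control fell from 5 to 2 with edgeR and to 2 with only the 2 groups in the fit, and in APP anti-miR-mix against WT control from 8 to 2 with edgeR. With 1 library left out the numbers were 1 to 6, 3 to 9 and, between the transgenic groups, 0. The cause was not tested. Over all genes, 666 to 1209 were called in APP control and 1169 to 2012 in APP anti-miR-mix against WT control with 1 library left out. Between the transgenic groups 0 genes were called with all libraries, 0 to 3 with 1 left out (3 without WT control 4 or APP control 6) and 3 with only those groups in the fit.

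Estimates near 0 changed sign in APP control. Hspa1a was 0.0274 and Hspa5 0.00526 with limma on the deposited table, and with 1 library left out Hspa1a ran from -0.0778 to 0.0613 and Cryab from -0.15 to 0.0934. Of the correlations, 4 pairs passed by Pearson's r without the 2 farthest libraries against 1 with all, and Hspa1a and Hspa1b, 1 of the 4, missed by Spearman's rho (adjusted p = 0.209, permutation). That of Hspa5 and Sdf2l1 was -0.0297 with the adjustment number removed, and that of Hspa5 and Hspa1a was 0.21 without the 2 farthest libraries.

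The replicate numbers were not taken to pair samples, since the sample titles do not name pairs. Of 18 same-number pairs, 10 had a correlation of deviations over 0.1, with values from -0.12 to 0.35 and a median of 0.11 (other pairs -0.01). Of 18 libraries, 7 correlated best with their own number. No chance level was worked out for these values, so they do not decide whether the numbers pair samples. With the replicate block, 6 members were called in APP control (1222 of 16678 genes), with Dnajb5 and Hspa4l gained and Hspa2 lost, and 0 between the transgenic groups (1 gene of all). Against WT control 12 were called in APP anti-miR-mix, 7 higher and 5 lower (2202 of 17052 genes), with Atf4, Creld2, Ddit3, Pdia4 and Xbp1 gained and Hspa9 lost. Hspa1b and Hspb1 had the widest intervals against WT control.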

Other observations

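Trib3, a pseudokinase induced through ATF4 and CHOP, was between 9.14 and 18.6 normalized counts in WT control and between 22.0 and 33.1 in APP control, with no overlap, and its adjusted p of 0.0505 (DESeq2) missed the threshold with a log2 fold change of 0.78 (SE 0.26). In APP anti-miR-mix it was between 15.6 and 40.6, which overlapped both, and passed against WT control (log2 fold change 0.71, SE 0.25, adjusted p = 0.0484, DESeq2). Its counts were low, and it was named after its values were seen.

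Slc7a11, the cystine transporter and a further target of ATF4, had a log2 fold change of 0.25 (adjusted p = 0.608) in APP control and 0.54 (adjusted p = 0.0244, both DESeq2) in APP anti-miR-mix against WT control. Between the transgenic groups the value was 0.29 (SE 0.17, adjusted p = 1.00, DESeq2), so that no difference of the inhibitors was called.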
